A study of Mus musculus with 15 samples.

Results

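The 10 genes described here carry out or set the rate of de novo lipogenesis, the making of fatty acids from carbohydrate carbon, in mouse liver. They were taken by name from a count table of 21702 genes, and all 10 were found. They are Srebf1, Acly, Me1, Acaca, Acacb, Fasn, Elovl6, Scd1, Thrsp and Pnpla3. RNA was sequenced from the livers of 15 wild-type female C57BL/6 mice (C57BL/6N in the methods) in 5 groups of 3. Mice were injected in the tail vein with AAV8-p21, an adeno-associated virus that carries the mouse cDNA of the cell cycle inhibitor p21 behind the liver promoter TBG, or with the empty virus AAV8-null, which the labels call mock-infected. Each mouse received 100 µl. The paper states that the 16 dpc mice received their vector while non-pregnant, and its methods give at least 1 week between virus and mating. AAV8-null mice were sampled non-pregnant (NP), at 8 days post coitum (8 dpc) and at 16 dpc. AAV8-p21 mice came from 8 dpc and 16 dpc alone, so the AAV8-p21 livers have no NP group of their own here. Every mouse thus carried a vector, and the mice were 8 to 14 weeks old according to the methods, while the study's reporting summary gives a wider range of ages. The TBG promoter acts in hepatocytes, so the other cells of the liver were not the target of the vector. The time of day and the feeding state at sampling are not given in the sources used here.

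In lipogenesis, citrate leaves the mitochondria and Acly (ATP citrate lyase) splits it into cytosolic acetyl-CoA. Acaca and Acacb (acetyl-CoA carboxylases 1 and 2) turn this into malonyl-CoA, from which Fasn (fatty acid synthase) builds palmitate with NADPH that Me1 (malic enzyme 1) helps to supply. Elovl6 lengthens palmitate to stearate, and Scd1 puts in the first double bond. Srebf1 encodes SREBP-1, the transcription factor through which insulin induces these enzymes. Thrsp (Spot 14) is a small protein of lipogenic tissues, and Pnpla3 is a lipid droplet protein induced by feeding. In the fed liver these genes are high, and in fasting they are low.

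The members lie on chromosomes 3, 5, 7, 9, 11, 15 and 19 of GRCm38 (mm10), and 4 of them, Srebf1, Acly, Acaca and Fasn, are on chromosome 11. RefSeq promoter windows of GRCm38.p6 were matched for 9 of the 10 genes. Scd1 was not matched. The 250 bases before the RefSeq start are shown for Fasn, Acly and Pnpla3, whose windows overlap no exon of GENCODE vM21, because these genes were among those that varied together across the livers. Capitals mark matches, on either strand, to CCAAT (the box bound by NF-Y) or to GGGCGG (the GC box bound by Sp1). The windows are chr11:120824548-120824797 on the minus strand for Fasn, chr11:100528001-100528250 on the minus strand for Acly and chr15:84167566-84167815 on the plus strand for Pnpla3.
Fasn: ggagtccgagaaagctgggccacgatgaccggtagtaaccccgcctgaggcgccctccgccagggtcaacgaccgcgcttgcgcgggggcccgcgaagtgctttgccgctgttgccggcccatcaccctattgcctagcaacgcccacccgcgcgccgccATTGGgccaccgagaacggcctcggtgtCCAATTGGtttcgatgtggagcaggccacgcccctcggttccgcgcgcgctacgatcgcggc
Acly: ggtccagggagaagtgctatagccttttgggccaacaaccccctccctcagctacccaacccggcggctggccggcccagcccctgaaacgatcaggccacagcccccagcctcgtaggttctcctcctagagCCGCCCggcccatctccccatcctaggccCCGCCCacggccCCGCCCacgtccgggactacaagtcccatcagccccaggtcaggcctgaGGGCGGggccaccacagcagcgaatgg
Pnpla3: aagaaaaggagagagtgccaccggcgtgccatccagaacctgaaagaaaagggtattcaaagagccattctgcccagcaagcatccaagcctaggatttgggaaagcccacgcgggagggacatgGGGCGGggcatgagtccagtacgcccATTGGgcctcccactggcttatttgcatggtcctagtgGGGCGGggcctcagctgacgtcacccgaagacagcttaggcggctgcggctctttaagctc

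The Fasn window held 3 CCAAT matches, whose first bases lie at -90, -62 and -59 from the start, and the last 2 of these overlap. The Acly window held 4 GC boxes and no CCAAT. The Pnpla3 window held both, with CCAAT at -99 and GC boxes at -125 and -61. Over the 12 RefSeq windows of the 9 genes, CCAAT was found in windows of 6 genes (Srebf1, Me1, Acacb, Fasn, Thrsp and Pnpla3) and the GC box in windows of 4 (Srebf1, Acly, Me1 and Pnpla3), which are 7 and 5 of the 12 windows. Among all 32851 windows of this length, 33.8% held CCAAT and 32.7% held the GC box. The element TCACNCCAC, a form of the sterol regulatory element that SREBP proteins bind, was in 1.05% of all windows and the E-box CACGTG in 6.02%, and 0 of the 12 member windows held either. These letters may lie outside the windows read.

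Reads on genes numbered 12280709 to 17615185 per library, and all 10 members were among the 12172 genes that passed the filter on low counts. Levels are given as CPM, which are counts relative to the library size after scaling by edgeR's TMM factors (0.682 to 1.25). The albumin gene Alb took 7.9002% to 12.9% of the counts at NP and 8 dpc and 20.5% to 27.8% at 16 dpc. Cdkn1a, the gene of p21, was at 3.29 to 127 CPM in the 9 AAV8-null livers and at 347 to 1664 CPM in the 6 AAV8-p21 livers, in the direction of the labels. Its log2 fold change between vectors was 4.40 at 8 dpc and 3.83 at 16 dpc (adjusted p = 0.0873 and 0.0619 in edgeR, neither called). Defining hepatocyte markers were abundant (summed CPM of 8 genes 75427 to 439882, most of it from Alb). Of 6 adipocyte markers, Lep and Retn were at 0 counts in all 15 libraries, which allows up to 3 counts in each, Adipoq, Plin1 and Cfd were at or under 0.167 CPM, and Fabp4, which other cells than adipocytes also express, was at 3.81 to 9.16 CPM. In bulk liver, fewer cells of a type and less RNA per cell cannot be told apart. The 3 libraries of AAV8-p21 at 16 dpc are called a, b and c, since their numbers in the table and in the labels differ.

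Levels between genes are compared per kb of exon. In NP AAV8-null livers Scd1 had the highest level at 448 ± 321 CPM per kb (SD, n = 3), followed by Thrsp at 29.2 ± 17.4, Me1 at 28.6 ± 3.94, Acly at 19.9 ± 5.80 and Fasn at 15.9 ± 5.43. Elovl6 was at 9.62 ± 1.76 CPM per kb, Srebf1 at 9.48 ± 1.91, Acacb at 5.13 ± 1.89 and Acaca at 2.16 ± 0.639. Pnpla3 was close to 0, at 0.0898 ± 0.0895 CPM per kb. From Thrsp down to Srebf1 the ranges of mean ± SD of neighbours in this order overlapped, while Scd1 lay above Thrsp, Acacb below Srebf1, Acaca below Acacb and Pnpla3 below Acaca beyond them. Scd1 supplied most of the summed CPM of the members in each NP liver, and its level differed 6.55-fold between the highest and the lowest of these.

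The regulator Srebf1 was at 128 to 260 CPM in AAV8-p21 livers at 8 dpc and at 25.3 to 91.6 CPM in AAV8-null livers at 8 dpc, so these groups did not overlap. At 16 dpc its 3 AAV8-null values were 30.3, 163 and 14.5 CPM and its AAV8-p21 values 138, 130 and 22.6 CPM. One AAV8-null liver at 16 dpc was therefore above all 3 AAV8-p21 livers of that stage, and the groups overlapped. NP livers lay closest together, at 61, 41.1 and 58.2 CPM. Srebf1 overlaps an exon of Rai1 on the other strand, and its counts sum the isoforms of its several promoters. The strand setting of the counting is not stated, so reads of overlapping genes on opposite strands could not be separated; the same holds for Me1 (A330041J22Rik) and Elovl6 (Gm35986).

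Acly, which supplies the acetyl-CoA, was at 486, 257 and 269 CPM in AAV8-p21 livers at 8 dpc and at 161, 170 and 73 CPM in AAV8-null livers at 8 dpc. At 16 dpc it was at 58.4, 117 and 53.6 CPM with AAV8-null and at 225, 259 and 61.1 CPM with AAV8-p21. Library c, the low one of the AAV8-p21 livers at 16 dpc, sat inside the AAV8-null range, while a and b sat above it. Me1 behaved in another way. It was at 96.3 to 126 CPM in NP livers, 96.3 to 137 CPM at 8 dpc and 77.6 to 89.8 CPM at 16 dpc with AAV8-null, and at 119 to 159 CPM and 56.6 to 86.9 CPM at 8 and 16 dpc with AAV8-p21. In both vectors all 3 Me1 values at 16 dpc lay under all 3 at 8 dpc.

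Of the enzymes of synthesis, Fasn did not overlap between vectors at 8 dpc. Its AAV8-p21 values at 8 dpc were 796, 611 and 665 CPM, above the highest of the 9 AAV8-null livers of any stage, which was at 315 CPM. With AAV8-null the NP livers had 220, 107 and 195 CPM, those at 8 dpc 190, 315 and 98.4 CPM and those at 16 dpc 126, 201 and 66.1 CPM. With AAV8-p21 at 16 dpc it was at 413, 390 and 77.9 CPM, again with library c in the AAV8-null range. Acaca, the cytosolic carboxylase, varied less than any other member among the AAV8-null livers at 8 dpc (38.8, 42.6 and 43.9 CPM) and was at 76, 63.9 and 67.7 CPM in AAV8-p21 livers of that stage. At 16 dpc it was at 35.7, 52.7 and 27.6 CPM with AAV8-null and 62.4, 94.2 and 29.7 CPM with AAV8-p21. Acacb, the carboxylase of the mitochondrial surface, makes the malonyl-CoA that holds back fatty acid oxidation. With AAV8-null it was at 29.5, 53.7 and 65.2 CPM in NP livers, 99.9, 109 and 64.6 CPM in 8 dpc livers and 114, 249 and 96.1 CPM in 16 dpc livers. With AAV8-p21 the 8 dpc livers had 137, 108 and 95.7 CPM and the 16 dpc livers 196, 177 and 129 CPM.

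**Figure D1:**
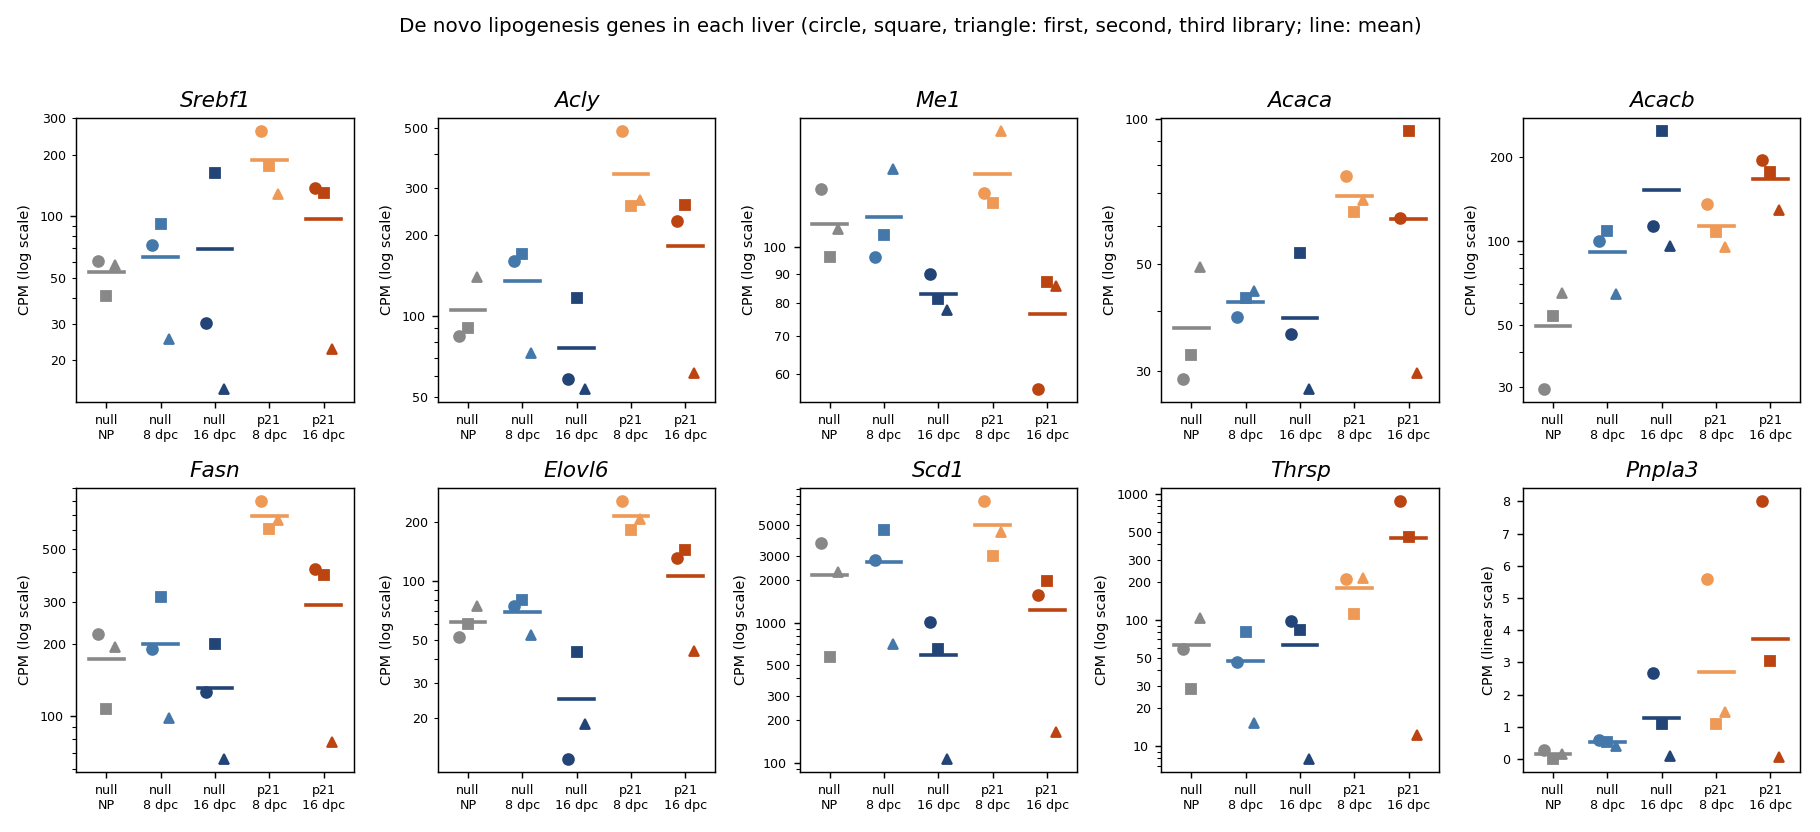
Level of each of the 10 genes in each of the 15 livers, in CPM on a log axis (linear for Pnpla3), by vector (null, p21) and stage. Points are livers, in the order of replicates 1 to 3 or libraries a to c, and lines are group means. For Fasn the 3 AAV8-p21 livers at 8 dpc, at 611 to 796 CPM, lie above all others.

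Of the enzymes that modify palmitate, Elovl6 had 51.6, 59.9 and 74 CPM in NP livers, 74.1, 79.8 and 53.1 CPM in 8 dpc livers and 12.3, 43.4 and 18.6 CPM in 16 dpc livers with AAV8-null. With AAV8-p21 the 8 dpc livers had 255, 181 and 207 CPM and the 16 dpc livers 130, 145 and 43.5 CPM. At both stages all 3 AAV8-p21 livers were above all 3 AAV8-null livers, at 16 dpc with a margin of 43.5 against 43.4 CPM between the nearest livers. Scd1 spread widely within groups, with 2.44- to 11.9-fold between the highest and the lowest liver. With AAV8-null it had 3699, 565 and 2308 CPM in NP livers, 2795, 4555 and 703 CPM in 8 dpc livers and 1007, 652 and 106 CPM in 16 dpc livers. With AAV8-p21 the 8 dpc livers had 7349, 3007 and 4462 CPM and the 16 dpc livers 1573, 1973 and 166 CPM, so all 3 livers at 16 dpc were below all 3 at 8 dpc.

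The accessory gene Thrsp had the widest range within a group after the scarce Pnpla3. It was at 873, 454 and 12.2 CPM in AAV8-p21 livers at 16 dpc, a ratio of 71.8 between library a and library c. The AAV8-null livers at 16 dpc were at 97.2, 83.1 and 7.92 CPM, so both groups held 1 low liver. At 8 dpc Thrsp was at 211, 111 and 214 CPM with AAV8-p21 and at 46.2, 80.4 and 15.2 CPM with AAV8-null, and NP livers were at 58.8, 28.5 and 104 CPM. Pnpla3 was scarce, with 4, 0 and 2 counts in the NP livers and 10, 9 and 8 counts at 8 dpc with AAV8-null. It had 113, 19 and 21 counts in AAV8-p21 livers at 8 dpc, 94, 42 and 1 counts in those at 16 dpc and 30, 13 and 1 counts in AAV8-null livers at 16 dpc. It passed the filter on low counts through the groups where it is high, so it is left out of the counts and medians of members that follow unless it is named, and no fold is given for it against NP livers.

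The first question of the design is how the livers with the p21 vector differed from those with the empty vector at 8 dpc. All 9 members other than Pnpla3 had a log2 fold change above 0 (AAV8-p21 over AAV8-null), from 0.25 for Me1 to 1.92 for Thrsp, with a median of 1.33 against -0.0023 over all genes tested. For 6 of them (Srebf1, Acly, Acaca, Fasn, Elovl6 and Thrsp) all 3 AAV8-p21 livers lay above all 3 AAV8-null livers, as was so for 5.52% of all genes tested. None of the 10 members passed edgeR's quasi-likelihood test (adjusted p 0.454 to 1), and 0.0246% of all genes did. The smallest adjusted p-values were those of Elovl6, with a log2 fold change of 1.64 (SE 0.44, adjusted p = 0.454), and Fasn, with 1.78 (SE 0.56, adjusted p = 0.627). Acly followed with 1.33 (SE 0.49, adjusted p = 0.770). Srebf1 had 1.57 (SE 0.77), Acaca 0.73 (SE 0.34), Thrsp 1.92 (SE 1.06), Scd1 0.88 (SE 0.91), Acacb 0.31 (SE 0.36) and Me1 0.25 (SE 0.21). Without AAV8-null replicate 2, Thrsp was at 2.54 and Scd1 at 1.50, and without AAV8-null replicate 3 Scd1 was at 0.43. Pnpla3 had 2.41 (SE 1.09), given as a description, and 1.30 without AAV8-p21 replicate 1. At an unadjusted p under 0.05 there were 4 of the 9 members and 631 genes in all.

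The call at 8 dpc depended on the model. The methods name DESeq2's Wald test but not which libraries were fitted together. Fitted on the 6 livers compared, this test called 73 genes (0.616%), among them the 6 members that did not overlap, with adjusted p-values from 1.155e-07 for Elovl6 to 0.0487 for Acly. DESeq2 on all 15 libraries called 0 members beside 0.255% of all genes, and limma voom with sample weights called 1 member, Elovl6 (adjusted p = 0.0363), beside 0.863%. With any 1 of the 6 livers left out, 6 or 7 of the 9 members did not overlap, beside 9.16% to 11.7% of all genes. The members vary together from liver to liver, so they are not 6 separate observations.

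At 16 dpc, 8 of the 9 members had a log2 fold change above 0, with a median of 1.07 against -0.0002 over all genes tested. Elovl6 was the only member whose groups did not overlap, as was so in this direction for 6.65% of all genes. No member passed the test, and 0.0739% of all genes did. Elovl6 had a log2 fold change of 2.098 (SE 0.45, adjusted p = 0.101), Thrsp 2.83 (SE 1.09, adjusted p = 0.417), Acly 1.25 (SE 0.49, adjusted p = 0.424) and Fasn 1.17 (SE 0.56, adjusted p = 0.518). Pnpla3 had 1.52 (SE 1.04), Scd1 1.07 (SE 0.91), Acaca 0.68 (SE 0.34), Srebf1 0.48 (SE 0.76), Acacb 0.13 (SE 0.36) and Me1 -0.12 (SE 0.21). The values for Srebf1, Acacb and Me1 changed sign when single livers were left out. With each of the 6 livers left out in turn, Thrsp ran from 1.89 (without library a) to 3.40 (without library c), Scd1 from 0.56 to 1.71, Elovl6 from 1.77 to 2.78 and Pnpla3 from 0.29 (without library a) to 2.61 (without AAV8-null replicate 1). At an unadjusted p under 0.05 there were 3 members and 1189 genes.

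The comparison at 16 dpc rested on library c of the AAV8-p21 livers, which was the lowest of its group in 8 of the 9 members. Without it, Elovl6 passed edgeR's test (log2 fold change 2.47, adjusted p = 0.0240), and the share of all genes called in that fit is not given here. With that library left out, 6 of the 9 members (Acly, Acaca, Fasn, Elovl6, Scd1 and Thrsp) did not overlap, beside 17.8% of all genes. Without AAV8-null replicate 2, 3 members (Acly, Acacb and Elovl6) did not overlap, beside 11.9% of all genes. With all livers in, DESeq2 on all 15 libraries called Elovl6 as well (adjusted p = 0.000845) beside 1.17% of all genes, as did DESeq2 on the 6 livers, beside 1.20%, and limma voom, beside 0.961%. The vector effect at 16 dpc minus that at 8 dpc ran from -1.10 for Srebf1 to 0.91 for Thrsp on the log2 scale, and 0 members passed the test of this interaction, which called 0 genes (0%), with 376 at an unadjusted p under 0.05. DESeq2 called 0 genes for it on all 15 libraries and 2 (0.0187%) on the 12 livers of the 4 groups, neither of them a member, and limma voom called 0.

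**Figure D2:**
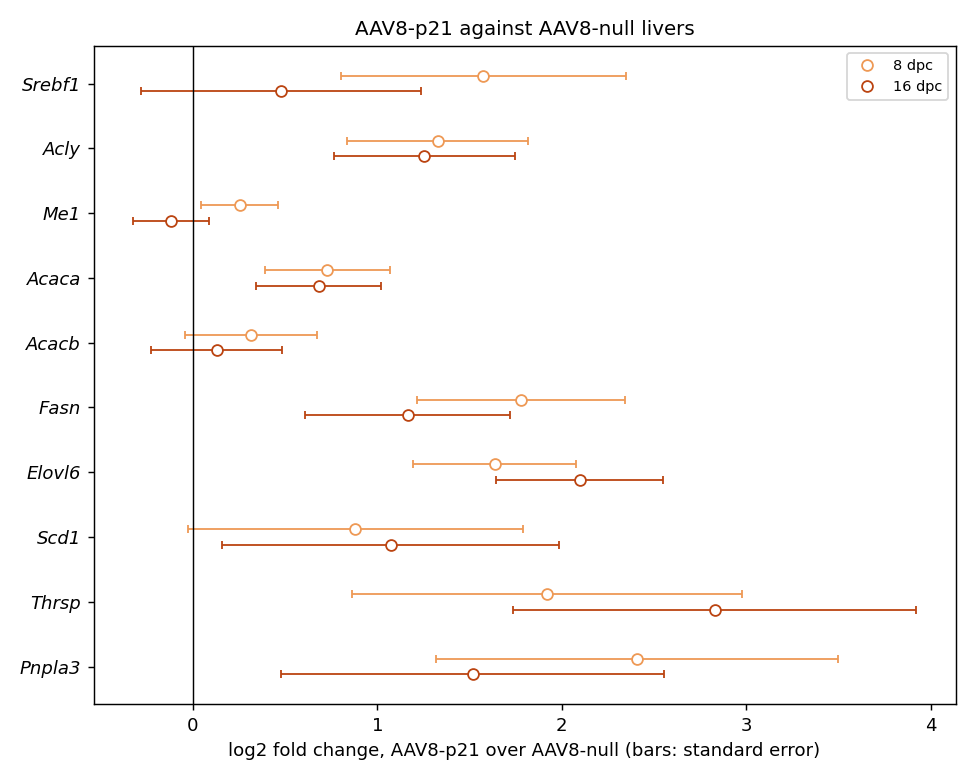
Log2 fold change of AAV8-p21 over AAV8-null livers for the 10 genes at 8 dpc and at 16 dpc, from edgeR's model of all 15 libraries, with standard errors as bars. Open points did not pass the adjusted threshold, which is so for all of them; all points at 8 dpc lie to the right of 0.

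The second question is how the members moved through pregnancy in livers with the empty vector. Acacb rose from NP to 16 dpc, with a log2 fold change of 1.63 (SE 0.37, adjusted p = 0.0165 in edgeR), and all 3 livers at 16 dpc were above all 3 NP livers, as was so for 12.1% of all genes tested. It was the only member of the 10 called, beside 6.52% of all genes. The lowest of the 3 livers at 16 dpc was at 96.1 CPM and the highest NP liver at 65.2 CPM. The adjusted p of Acacb was 0.05003 without NP replicate 1, 0.0564 without NP replicate 2, 0.0796 without 16 dpc replicate 2 and 0.0825 in edgeR on the 6 livers alone, so the call was lost in each of these. Elovl6 and Me1 went the other way, with all 3 livers at 16 dpc below all 3 NP livers, as was so for 12.5% of all genes. Neither passed the test (Elovl6 log2 fold change -1.32, SE 0.44, adjusted p = 0.0982; Me1 -0.41, SE 0.21, adjusted p = 0.279). Elovl6 did pass without AAV8-null 16 dpc replicate 2 (log2 fold change -2.0005, adjusted p = 0.0205), in both DESeq2 fits (beside 9.95% of all genes on all libraries and 8.44% on the 6 livers) and in limma voom (13.2%). Scd1 had -1.90 (SE 0.93, adjusted p = 0.260), and Fasn, Acly, Thrsp, Acaca and Srebf1 had values between -0.46 and 0.38. Scd1 ran from -2.53 without 16 dpc replicate 1 to -1.29 without NP replicate 1, and Srebf1, at 0.38, was at -1.25 without 16 dpc replicate 2.

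From NP to 8 dpc in AAV8-null livers, the log2 fold change was above 0 for 8 of the 9 members, with a median of 0.21, and 0 passed the test, which called 0 of all genes (0%) in edgeR, with 803 genes at an unadjusted p under 0.05. DESeq2 on all 15 libraries called 70 genes (0.575%), none of them a member, and limma voom 1850 (15.2%), of which Acacb was the only member (log2 fold change 0.83, adjusted p = 0.0247 in voom). In edgeR Acacb had 0.88 (SE 0.36, adjusted p = 0.614). None of the 9 members lay wholly above in the later group, as 4.69% of all genes did, and Pnpla3 was at 8 to 10 counts against 0 to 4. The values of Srebf1, Fasn, Scd1, Thrsp and Me1 changed sign with single livers left out.

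From 8 to 16 dpc in AAV8-null livers, Elovl6 and Me1 were lower in all 3 later livers than in all 3 earlier ones, beside 12.9% of all genes. Elovl6 had a log2 fold change of -1.48 (SE 0.44, adjusted p = 0.0608), Me1 -0.44 (SE 0.21, adjusted p = 0.220) and Scd1 -2.19 (SE 0.94, adjusted p = 0.182), which ran from -2.82 without 16 dpc replicate 1 to -1.57 without 8 dpc replicate 2. No member passed the test, which called 6.87% of all genes. Elovl6 passed it without AAV8-null 16 dpc replicate 2 (adjusted p = 0.0174) and without 8 dpc replicate 3 (adjusted p = 0.0466), in both DESeq2 fits (beside 11.3% of all genes on all libraries and 9.34% on the 6 livers) and in limma voom (14%). Limma voom also called Scd1 (log2 fold change -3.06, adjusted p = 0.0401).

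With AAV8-p21, Me1 fell from 8 to 16 dpc by 0.81 on the log2 scale (SE 0.21, adjusted p = 0.0465 in edgeR), beside 3.32% of all genes called. This call was lost with each of the 6 livers left out in turn (adjusted p 0.0752 to 0.151), with DESeq2's size factors in edgeR, without the filter on low counts and in edgeR on the 6 livers alone. Both DESeq2 fits (6.69% and 7.45% of all genes) and limma voom (14.9%) called Me1. Fasn (log2 fold change -1.23, SE 0.56, adjusted p = 0.282), Elovl6 (-1.01, SE 0.44, adjusted p = 0.257) and Scd1 (-1.997, SE 0.94, adjusted p = 0.305) did not pass the test. Me1, Fasn, Elovl6 and Scd1 were the 4 members whose later livers all lay below the earlier ones, as did 11.4% of all genes. No member lay wholly above, as 11.5% of all genes did. Thrsp had 1.32 (SE 1.03), with libraries a and b above all livers at 8 dpc and library c below them, and 0.38 without library a.

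These stage comparisons depend on how libraries are scaled. Scaled by total counts in place of TMM, the median log2 fold change of all genes at 16 dpc moved by -0.68 against NP and by -0.71 against 8 dpc with AAV8-null, and by -0.57 against 8 dpc with AAV8-p21. On that scale Me1, Scd1 and Elovl6 were called lower and Acacb higher at 16 dpc than NP, Acacb with a log2 fold change of 0.90 in place of 1.63, with 233 genes called higher and 5917 lower in place of 451 and 343. On the same scale Acaca, Acly, Fasn, Me1, Scd1 and Elovl6 were called lower at 16 than at 8 dpc with AAV8-null, with a split of 190 and 6318 in place of 385 and 451. With AAV8-p21, Acly, Fasn, Me1, Scd1 and Elovl6 were called lower, with 179 and 4138 in place of 254 and 150. The vector comparisons moved by 0.11 at 16 dpc and by -0.03 at 8 dpc, with no member called. The comparisons share livers: the AAV8-null livers at 8 dpc, for example, stand in both the vector comparison and the stage comparisons.

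**Figure D3:**
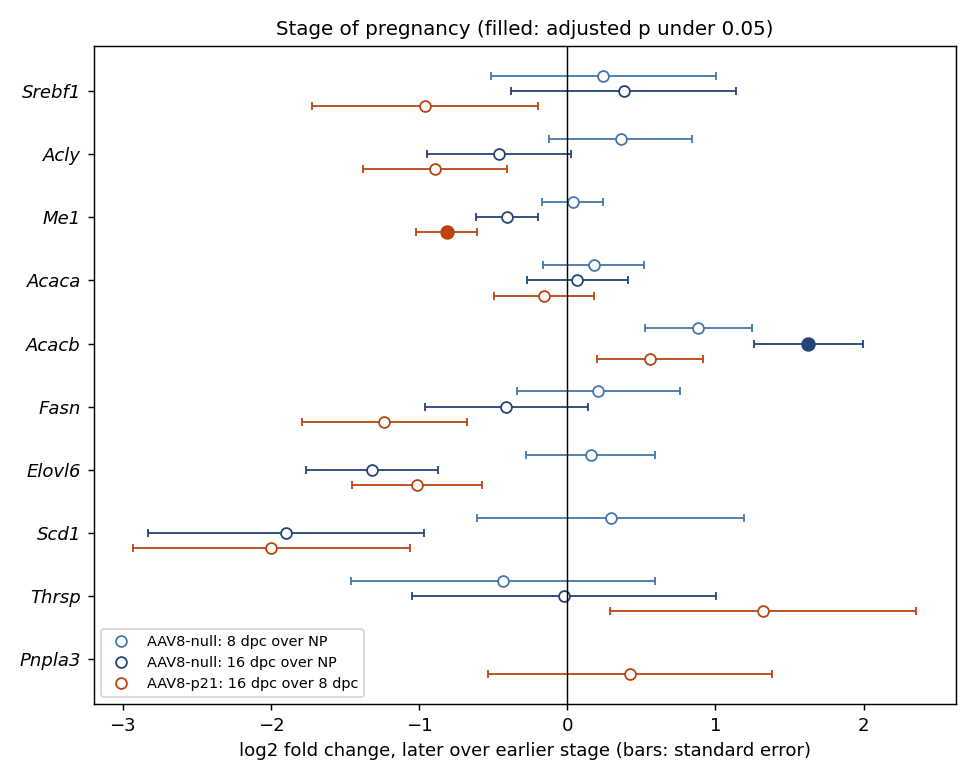
Log2 fold change between stages for the 10 genes, with Pnpla3 shown only for AAV8-p21: AAV8-null at 8 dpc and at 16 dpc over NP, and AAV8-p21 at 16 dpc over 8 dpc, from edgeR's model of all 15 libraries, with standard errors as bars. Filled points passed an adjusted p of 0.05, which were Acacb (1.63, AAV8-null 16 dpc over NP) and Me1 (-0.81, AAV8-p21).

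In the groups other than NP, single livers were low or high across most members. AAV8-null 16 dpc replicate 3 was the lowest of its group in 8 of the 9 members, as was library c of AAV8-p21 at 16 dpc, and AAV8-null 8 dpc replicate 3 was lowest in 7 and highest in the other 2. In NP livers the order was mixed, with replicate 1 lowest in 4 and highest in 4, replicate 2 lowest in 5 and replicate 3 highest in 5. In AAV8-p21 livers at 8 dpc, replicate 1 was highest in 7 members and replicate 2 lowest in 7. Over the 36 pairs of these 9 members, the median Pearson correlation of log2 CPM across the 15 libraries was 0.684 (range -0.54 to 0.944), and 0.758 after the group means were taken off. The closest pair, at 0.944, was Acly with Fasn. Me1 stood apart, with a median correlation to the other members of 0.176 across libraries and -0.32 with the group means off, and so did Acacb across libraries (0.322). These correlations share libraries and scaling, and are given as a description.

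**Figure D4:**
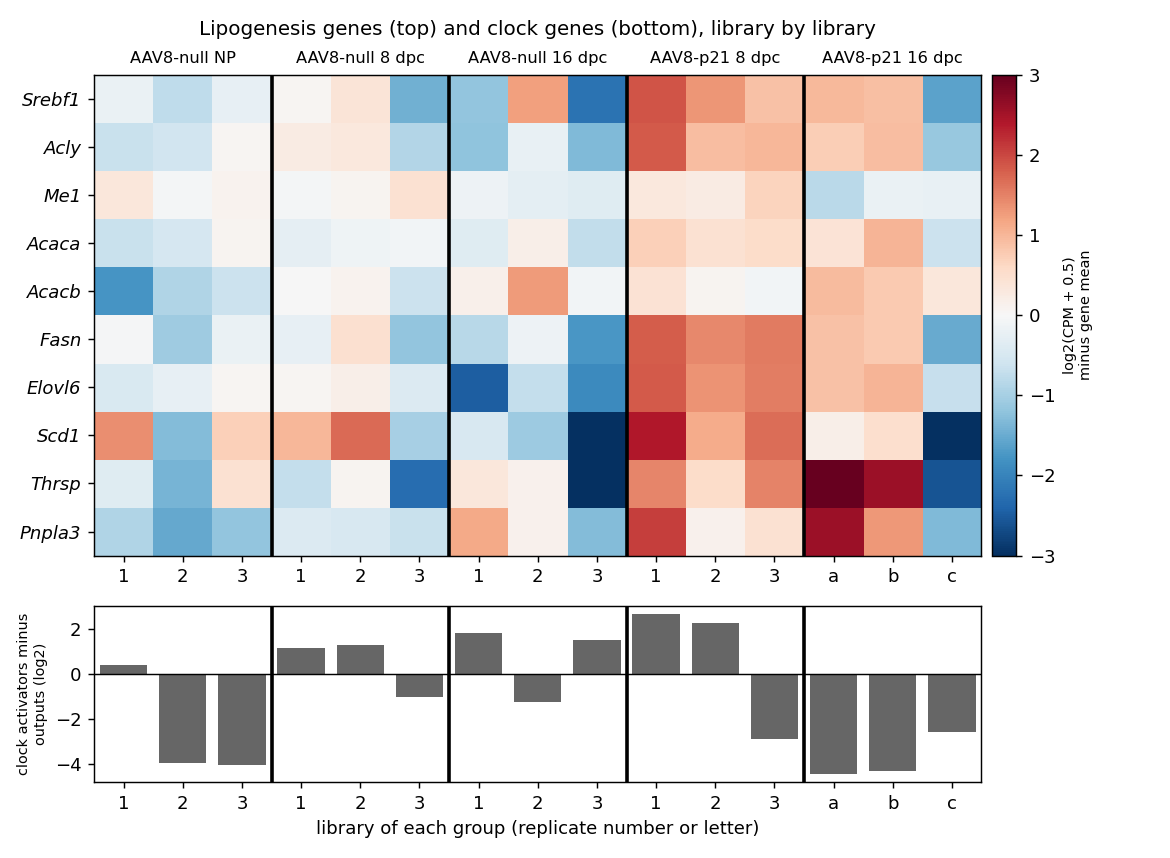
Top, log2(CPM + 0.5) of each gene minus its mean over the 15 livers, by liver, with red above and blue below the mean and colours ending at 3 and -3. Bottom, mean log2 CPM of 3 clock activators minus that of 6 clock outputs in the same livers. Library c of AAV8-p21 at 16 dpc and replicate 3 of AAV8-null at 16 dpc are blue in most rows, and all 3 AAV8-p21 livers at 8 dpc are red in most.

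Because Srebf1 and its targets follow the daily cycle of feeding, clock genes were read in the same livers. The measure is the mean log2 CPM of the activators Arntl, Npas2 and Clock minus that of the outputs Dbp, Tef, Nr1d1, Nr1d2, Per3 and Ciart. At 16 dpc it was 1.82, -1.24 and 1.50 in AAV8-null livers and -4.45, -4.33 and -2.58 in AAV8-p21 livers, so the groups did not overlap. At 8 dpc it was 1.16, 1.28 and -1.04 with AAV8-null and 2.66, 2.27 and -2.88 with AAV8-p21, so these groups did overlap. AAV8-p21 8 dpc replicate 3, on the other side from its group in this measure, was the lowest of its group in 2 members, among them Srebf1 at 128 CPM, and the highest in 2, and had Fasn at 665 and Elovl6 at 207 CPM, inside the range of the other 2 livers. AAV8-null 8 dpc replicate 3, also on the other side from its group, was the lowest in 7 of the 9 members and the highest in 2. AAV8-null 16 dpc replicate 2, likewise on the other side, was the highest in 6. In NP livers the measure was 0.39, -3.97 and -4.06, and replicate 1 was the lowest in 4 members and the highest in 4. The part of the clock state in the members' levels was not tested.

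Marker sums of other cells of the liver were also compared between vectors. At 8 dpc the summed CPM of 5 stellate cell markers was 84.6 to 138 with AAV8-null and 144 to 215 with AAV8-p21, and that of 8 hepatocyte markers 75427 to 94464 and 108142 to 130319, both without overlap. At 16 dpc the hepatocyte sum was 313786 to 439882 and 275341 to 311956, and that of 4 cholangiocyte markers 1.17 to 3.30 and 3.56 to 3.66, again without overlap. Alb alone supplied most of the hepatocyte sums. Its mean was 75886 CPM with AAV8-null and 105176 CPM with AAV8-p21 at 8 dpc, and 356757 and 264304 CPM at 16 dpc. The sums of 6 Kupffer cell, 5 endothelial and 6 adipocyte markers overlapped between vectors at both stages. None of these markers was called between vectors at either stage, beside 0.0246% of all genes at 8 dpc and 0.0739% at 16 dpc.

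Between stages the hepatocyte sum was 94074 to 110731 in NP livers, below the AAV8-null livers at 16 dpc. Of the 8 hepatocyte markers, 4 were called higher and 1 lower from NP to 16 dpc with AAV8-null, beside 6.52% of all genes, among them the albumin gene Alb (log2 fold change 2.01, edgeR adjusted p = 0.000351) and the transthyretin gene Ttr (-1.41, adjusted p = 0.0214). From 8 to 16 dpc, 4 of the 8 were called higher with each vector, beside 6.87% of all genes with AAV8-null and 3.32% with AAV8-p21. Of 5 stellate cell markers, Lrat was called lower from NP to 16 dpc (-1.41, adjusted p = 0.0279) and Dcn higher from 8 to 16 dpc with AAV8-null (1.04, adjusted p = 0.0144). Of 5 endothelial markers, Pecam1 (1.16, adjusted p = 0.0318) and Clec4g (0.80, adjusted p = 0.0206) were called higher from 8 to 16 dpc with AAV8-null. Scaled by total counts, Dcn, Pecam1 and Clec4g were at 0.34, 0.43 and 0.099 and were not called. Between stages 0 of the Kupffer cell and cholangiocyte markers were called. The part of cell composition in the members' levels was not tested.

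The genes around the pathway were read from fixed lists. Their calls stand beside 6.52% of all genes called from NP to 16 dpc, 6.87% from 8 to 16 dpc with AAV8-null and 3.32% with AAV8-p21, and each list of 9 to 16 genes held 0 to 2 calls in a comparison. In these lists 0 of their members were called between vectors at either stage, between NP and 8 dpc or in the interaction, where edgeR called 0.0246% (8 dpc), 0.0739% (16 dpc), 0% and 0% of all genes. Of 16 regulators, 2 rose from NP to 16 dpc with AAV8-null, namely Scap, the escort of SREBP (log2 fold change 1.16, SE 0.23, adjusted p = 0.00848), and Insig2, which holds the SREBP and Scap complex back in the endoplasmic reticulum (2.23, SE 0.58, adjusted p = 0.0329). Scap also rose from 8 to 16 dpc (1.02, SE 0.23, adjusted p = 0.0178). Mlxipl, which encodes the glucose-sensing factor ChREBP, fell between these stages by 1.91 in AAV8-null livers (SE 0.55, adjusted p = 0.0496) and fell by 2.12 in AAV8-p21 livers (SE 0.55, adjusted p = 0.0497). Mid1ip1, a partner of acetyl-CoA carboxylase related to Thrsp, was the 1 called gene of the 10 on carboxylase control. It fell from NP to 16 dpc by 1.87 (SE 0.41, adjusted p = 0.0146), from 8 to 16 dpc by 1.55 with AAV8-null (adjusted p = 0.0365) and by 1.63 with AAV8-p21 (adjusted p = 0.0356).

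Mid1ip1 was at 52.3, 43.4 and 48.9 CPM in AAV8-p21 livers at 8 dpc and at 17, 21.4 and 10.7 CPM in AAV8-null livers of that stage, like the members without overlap but not called (log2 fold change 1.56, SE 0.39, adjusted p = 0.415). Of 15 genes of carbon and NADPH supply, Pgd of the pentose phosphate pathway rose from NP to 16 dpc (1.26, SE 0.27, adjusted p = 0.0113), and Mpc1, a subunit of the mitochondrial pyruvate carrier, rose from 8 to 16 dpc (0.66, SE 0.17, adjusted p = 0.0327; -0.05 when scaled by total counts). Of 15 genes of elongation, desaturation and activation, Acsl1 and Acsl5, which activate fatty acids, rose from NP to 16 dpc (1.10 and 1.09, adjusted p = 0.0147 and 0.0295). Acsl1 also rose from 8 to 16 dpc (1.06, adjusted p = 0.0204). The desaturase Fads2 rose from 8 to 16 dpc in AAV8-null livers (1.32, adjusted p = 0.0416) and in AAV8-p21 livers (1.53, adjusted p = 0.0330), and Elovl2 in AAV8-p21 livers (1.74, adjusted p = 0.0410). These are enzymes of polyunsaturated and activated fatty acids, unlike Elovl6 and Scd1.

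Of 10 genes of triglyceride synthesis, Lpin1 rose (2.27, SE 0.56, adjusted p = 0.0386) and Agpat2 fell by 1.10 (SE 0.24, adjusted p = 0.0207) from 8 to 16 dpc with AAV8-p21. Of the 14 tested genes of lipid droplets and lipases, the droplet coat genes Plin2 (2.55, SE 0.54, adjusted p = 0.0113) from NP to 16 dpc, and Plin2 and Plin5 from 8 to 16 dpc (2.22 and 1.58, adjusted p = 0.0235 and 0.0366), rose with AAV8-null. Of 9 genes of insulin action and fasting, Igfbp1, which insulin represses, rose from 118 ± 28.4 CPM in NP livers to 1472 ± 477 CPM at 16 dpc with AAV8-null (SD, n = 3; log2 fold change 3.64, edgeR adjusted p = 0.000365), and Irs2, an adaptor of the insulin receptor, rose too (1.55, adjusted p = 0.0355). Igfbp1 also rose from 8 to 16 dpc (3.21, adjusted p = 0.000835). Of the calls in these lists, those of Igfbp1 in both comparisons and of Scap from NP to 16 dpc held with each of the 6 livers compared left out in turn, and each of the others was lost in at least 1 such fit. Scaled by total counts, the calls of Scap (log2 fold change 0.46), Acsl1, Acsl5, Irs2 and Pgd from NP to 16 dpc were lost. So were those of Acsl1, Fads2, Plin5, Scap and Mpc1 from 8 to 16 dpc with AAV8-null, while the other calls in these lists held on that scale. The call of Scap from NP to 16 dpc was also lost in edgeR on the 6 livers alone.

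The genes outside the list whose log2 CPM across the 15 libraries was closest to the mean of the 10 members, Pnpla3 included, were Dock2 (Pearson r 0.941), Sc5d (0.940), Pmvk (0.933), Pklr (0.920), Dhcr7 (0.901), Rdh11 (0.896), Fdft1 (0.892), Acss2 (0.890), Acat2 (0.888) and Nsdhl (0.888). Sc5d, Pmvk, Dhcr7, Fdft1 and Nsdhl encode enzymes of sterol synthesis, Pklr the pyruvate kinase of liver and Acss2 an acetyl-CoA synthetase. With the group means taken off, genes among the closest were Prnp (0.938), Dgat2 (0.928), Acsm5 (0.928), Ripk3 (0.927), Dock2 (0.923), Gsta3 (0.918), Pnliprp1 (0.915), Map3k13 (0.913) and Stard3 (0.913), of which Dgat2 makes triglyceride. Dock2 was the only one of these genes named by both measures. Across the 15 libraries, without group means taken off, the members themselves ran from 0.226 for Me1 and 0.414 for Acacb to 0.962 for Acly and 0.970 for Fasn. Each member is itself part of that mean, which raises its value, so these are not comparable with those of genes outside the list.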

How the data were processed

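RNA-seq libraries were made by the authors from 200 ng of total liver RNA with a TruSeq Stranded mRNA kit. Per the methods and the submitters' processing notes, the authors trimmed the single-end reads of 86 bases (cutadapt 1.14), mapped them to mm10 (HISAT2 2.1.0) and counted unique reads on protein-coding genes of GENCODE vM25 with HTSeq 0.12.4. The deposited values are raw counts of reads per gene, without normalization, and reads with more than 1 position are not in them. The laser-captured samples were not analysed here.

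Counts were tested with edgeR 4.0.16 (quasi-likelihood test, TMM, filterByExpr with a minimum count of 10, 12172 of 21702 genes) in R 4.3.3. One model held all 15 libraries, with 10 residual degrees of freedom, a common coefficient of biological variation of 0.277 and Benjamini-Hochberg adjustment over all genes tested, and called genes have an adjusted p under 0.05. CPM is TMM-scaled, and log2 values plotted carry a pseudocount of 0.5. Libraries were checked for duplicates, and none was found. DESeq2 1.42.0 and limma 3.58.1 (voom) were alternatives, as were other scalings, filters, the compared groups alone, a replicate block and each library left out. A part of these was chosen after seeing the data, namely the fit without the block on the same 12 libraries and the counts of groups without overlap under other scalings and left-out libraries. The fit was also run on simulated counts, and the outcome of that run is not given here. With 3 mice against 3, a two-sided exact permutation test cannot go below 0.1. The labels give separate samples, and p-values measure the spread between these. Standard errors are the size of the log2 fold change divided by the square root of the test's F. They and the SDs include the spread between livers, while the limit of 3 counts covers counting error only.

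The members and gene lists were chosen with earlier results of these data known. Named beside the members are Cdkn1a, up to 3 called genes per list and direction, and the 10 genes most alike in pattern, of which 1 is not reported here; Mid1ip1 between vectors was named after its values were seen. Gene positions come from GENCODE vM21 on GRCm38 and promoters from RefSeq (GRCm38.p6).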

Additional observations from a re-analysis of the deposited data

How the results depend on the processing

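The number of members called moved with the model in most comparisons, and the cause was not tested. Between vectors at 16 dpc it was 0 in edgeR and 1 in both DESeq2 fits and in limma voom (1.17%, 1.20% and 0.961% of all genes), and between vectors at 8 dpc it was 0 in edgeR, 1 in voom (0.863% of all genes) and 7 in DESeq2 on the 6 livers compared (0.616%), which is 6 without Pnpla3. From NP to 16 dpc with AAV8-null it was 1 in the edgeR model of all 15 libraries (6.52% of all genes), 2 in both DESeq2 fits and voom (9.95%, 8.44% and 13.2%), 0 in edgeR on the compared groups (3.49%) and 4 with total counts (50.5%). From NP to 8 dpc it was 1 in voom (15.2%) in place of 0. From 8 to 16 dpc with AAV8-null it was 0 in edgeR (6.87%), 1 in both DESeq2 fits (11.3% and 9.34%), 2 in voom (14%) and 6 with total counts (53.5%). From 8 to 16 dpc with AAV8-p21 it was 1 in edgeR, both DESeq2 fits and voom (3.32%, 6.69%, 7.45% and 14.9%), 5 in edgeR with total counts (35.5%), and 0 in edgeR with DESeq2's size factors, without the filter, on the compared groups, or with a log2 fold change over 1 also asked for. With libraries left out in turn, the count ran from 0 to 1 in the comparisons between vectors at 16 dpc, from NP to 16 dpc and from 8 to 16 dpc with AAV8-null, and was 0 throughout from 8 to 16 dpc with AAV8-p21. The shares of all genes called in fits with a library left out are not given, here or above, so these counts have no background beside them. The number of members without overlap between vectors at 16 dpc, Pnpla3 included, ran from 1 to 7, beside 8.53% to 17.8% of all genes, with the 7 at 17.8%.

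Replicate numbers did not pair the livers: deviations from group means correlated at 0.007 on average between same-numbered livers (18 pairs, 7 over 0.1) and at -0.007 between others. With the replicate block on the 12 numbered libraries, 1 member (Elovl6) was called from 8 to 16 dpc with AAV8-null, as it was without the block on the same libraries (1), and Srebf1 changed sign to -0.21 from NP to 16 dpc, -0.10 from NP to 8 dpc and -0.11 from 8 to 16 dpc. The block changed no other call. The shares of all genes called in these fits on 12 libraries are not given here.

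Other changes of sign among the members were of log2 fold changes that passed no test in either fit, while outside them Mpc1, called from 8 to 16 dpc with AAV8-null, went to -0.05 with total counts. With total counts Me1 between vectors at 16 dpc was 0.0033, Srebf1 and Acaca from NP to 16 dpc were -0.37 and -0.64, Srebf1 and Thrsp from 8 to 16 dpc with AAV8-null were -0.65 and -0.36, and Acacb and Pnpla3 from 8 to 16 dpc with AAV8-p21 were -0.027 and -0.21. In voom Srebf1 and Acaca from NP to 16 dpc were -0.51 and -0.091, Thrsp from NP to 8 dpc was 0.14, Srebf1 and Thrsp from 8 to 16 dpc with AAV8-null were -1.11 and -0.64, and Acaca from 8 to 16 dpc with AAV8-p21 was 0.11. With single libraries left out, the ranges that crossed 0 were, between vectors at 16 dpc, Srebf1 -0.0048 to 2.11, Me1 -0.22 to 0.058 and Acacb -0.12 to 0.67. From NP to 16 dpc they were Srebf1 -1.25 to 0.86, Acaca -0.22 to 0.33 and Thrsp -0.48 to 0.52. From NP to 8 dpc they were Srebf1 -0.12 to 0.62, Me1 -0.13 to 0.15, Fasn -0.27 to 0.54, Scd1 -0.32 to 0.90 and Thrsp -1.05 to 0.12. From 8 to 16 dpc they were Srebf1 -1.50 to 0.62, Acaca -0.40 to 0.082 and Thrsp -0.053 to 1.03 with AAV8-null, and Acaca -0.59 to 0.18 and Pnpla3 -0.81 to 1.53 with AAV8-p21. Counts near 0 limit the values of Pnpla3.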
